A study of Mus musculus with 10 samples.

Results

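The genes described here are 10 members of Nodal, activin and TGF-beta signalling: the ligands Nodal, Gdf3 and Tgfb2, the co-receptor Tdgf1, the antagonists Lefty1 and Lefty2, the receptors Acvr1b and Acvr2b, and the signal transducers Smad2 and Smad3. They were chosen by symbol and are 10 of the 18193 genes named on the arrays. All 10 were measured, by 21 probe sets in total. A probe set is the group of short probes on the array that reads 1 transcript, and the brightest probe set of a gene stands for it unless another is named.

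The series measured mouse gene expression on 10 Affymetrix arrays in 3 groups. The 3 arrays labelled iPS-derived NSC are named for neural stem cells (NSC) made by differentiating iPS cells, and the 3 labelled iPS for induced pluripotent stem cells made from adult brain NSC with a pMX retrovirus carrying Oct4 cDNA and no other factor. The other 4 arrays held the brain NSC themselves, from adult animals. All cells trace to mice carrying the Oct4-eGFP transgene of the OG2 line and the Rosa26 neo/lacZ marker, crossed with ICR females, so the reporter and the marker are shared by every group. Per the labels, Oct4-GFP-positive colonies were picked by hand, expanded without drug selection and grown on irradiated mouse embryonic fibroblasts with LIF. The labels number the samples but do not say whether they came from separate cultures, so p-values measure only the spread between these samples.

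Nodal and the activins bind a type II receptor (Acvr2a or Acvr2b) and the type I receptor Acvr1b. Nodal, unlike activin, also needs a co-receptor of the Cripto family such as Tdgf1. The TGF-beta ligands use Tgfbr2 and Tgfbr1. Both branches phosphorylate Smad2 and Smad3, which enter the nucleus with Smad4 and bind DNA beside partners such as Foxh1. Lefty1, Lefty2 and Smad7 are induced by the pathway and act back on it as inhibitors. Mouse embryonic stem cells are known to express Nodal, Tdgf1, Gdf3 and the Lefty genes, and TGF-beta is known to slow the division of neural progenitors.

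All levels are log2 values that RMA produced, where 1 unit is a doubling. Marker genes went against the names of both derived groups. The mean level of 9 pluripotency markers was 11.52 to 11.63 on the arrays labelled iPS-derived NSC, 4.96 to 5.07 on those labelled iPS and 4.99 to 5.06 on brain NSC arrays. The mean of 9 neural stem cell markers was 6.03 to 6.11 on the arrays labelled iPS-derived NSC, 10.97 to 11.08 on those labelled iPS and 10.81 to 11.14 in brain NSC. The names are kept as deposited, and each direction below follows names that the markers contradict. Markers of other cells also moved with the groups. The mean of 11 feeder fibroblast markers was 6.50, 6.17 and 5.58 on replicates 1, 2 and 3 labelled iPS-derived NSC, against 5.18 to 5.29 in the labelled iPS group and 5.01 to 5.12 in brain NSC, and 4 of the 11 were higher and 1 lower than in the labelled iPS group. Primitive endoderm markers (8 measured) averaged 7.83 to 8.12 in the labelled iPS-derived NSC group, 6.33 to 6.37 in the labelled iPS group and 6.07 to 6.19 in brain NSC. Neuron markers (6 measured) averaged 6.72 to 6.81 in the labelled iPS-derived NSC group, 4.97 to 5.08 in the labelled iPS group and 4.97 to 5.13 in brain NSC. Tubb3 (5.34) and Stmn2 (4.76) carried the difference of that mean from the labelled iPS group. The other 4 neuron markers differed by -0.29 to 0.66. RMA values have no zero, so no marker is absent on this scale. In such bulk samples fewer cells of a type and less RNA per cell cannot be told apart.

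By their names, the arrays labelled iPS-derived NSC set against those labelled iPS would show differentiation, but the pluripotency markers were high in the first and the neural markers in the second. Nodal, Gdf3, Tdgf1, Lefty1, Lefty2 and both receptors were higher, and Tgfb2 was lower. Calls needed a difference of at least 2-fold and an adjusted p in limma under 0.05. Of the 10 members, 7 were called higher and 1 lower, while 10.8% and 14.4% of all genes were, or 25.3% in either direction. The median difference of the members was 1.97, and that of all genes 0.12. Smad2 and Smad3 were not called. The plot of the members by array shows these levels, and the differences are drawn in the plot of the 3 comparisons.

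**Figure D1:**
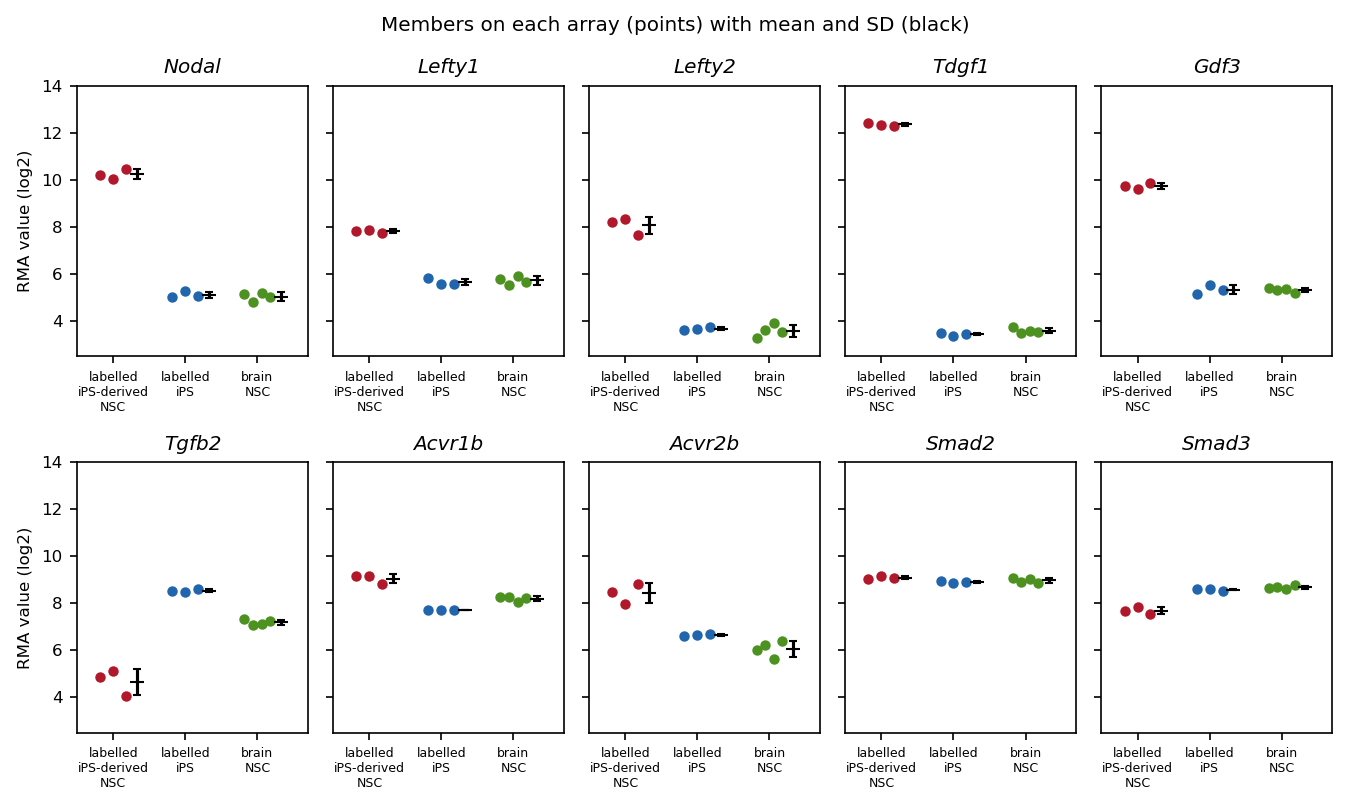
RMA values (log2, vertical axis) of the brightest probe set of each member on the 10 arrays, as 1 point per array, with the mean and SD in black. In the labelled iPS-derived NSC group Nodal, Lefty1, Lefty2, Tdgf1 and Gdf3 lie above both other groups, and Tgfb2 lies below them.

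Nodal, the ligand that patterns the early embryo, lies at chr10:61417972-61425338 in GRCm38.p6. Its values were 10.23, 10.03 and 10.48 in the labelled iPS-derived NSC group, 5.02, 5.26 and 5.06 in the labelled iPS group, and 5.14, 4.79, 5.21 and 5.01 in brain NSC. The first group stood clear of both others, which overlapped each other. The difference from the labelled iPS group was 5.14 ± 0.14 (SE; 35.2-fold, adjusted p = 9.23e-13 in limma), and that from brain NSC was 5.21 ± 0.13 (adjusted p = 3.55e-13). Both differences use the same 3 arrays on top, as they do for every member, so they are not independent of each other.

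Gdf3 encodes a ligand of the same family that also acts through the Nodal receptors. Its values were 9.74, 9.61 and 9.86 in the labelled iPS-derived NSC group, 5.13, 5.53 and 5.33 in the labelled iPS group, and 5.20 to 5.41 in brain NSC. It was higher than in the labelled iPS group by 4.40 ± 0.12 (adjusted p = 8.84e-13) and than in brain NSC by 4.42 ± 0.11 (3.8e-13), without overlap of the arrays. The labelled iPS and brain NSC arrays overlapped.

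Tdgf1 encodes Cripto, the membrane-anchored co-receptor through which Nodal reaches Acvr1b, and lies at chr9:110939608-110946158. It showed the greatest difference of the 10 members. The arrays labelled iPS-derived NSC gave 12.44, 12.36 and 12.30, those labelled iPS 3.49, 3.38 and 3.46, and brain NSC 3.74, 3.50, 3.58 and 3.52. The difference was 8.92 ± 0.09 from the labelled iPS group and 8.78 ± 0.09 from brain NSC (adjusted p = 7.92e-16 and 2.75e-16). The low values of both other groups lie under the lower quartile of their arrays (4.22 to 4.28), as do those of Lefty2 below. No detection calls were used, so a fold from such a level is not exact.

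The promoter of Tdgf1 is shown because this member stood furthest from both other groups. The sequence is from RefSeq (GRCm38.p6, chr9:110946159-110946408, minus strand) and holds the 250 bases before the annotated start, 5′ to 3′. Capitals mark GGGCGTGG, a GC box that Kruppel-like factors can bind.
Tdgf1: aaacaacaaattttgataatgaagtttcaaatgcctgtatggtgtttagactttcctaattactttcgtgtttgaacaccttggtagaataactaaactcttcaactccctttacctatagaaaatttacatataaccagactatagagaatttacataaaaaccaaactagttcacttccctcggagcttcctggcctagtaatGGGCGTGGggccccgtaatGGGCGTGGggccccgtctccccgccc
The 2 boxes begin 45 and 26 bases before the start. On either strand the motif occurs in 4.79% of 32851 RefSeq promoters of the same length, and 0.615% hold 2 or more matches. The boxes before Tdgf1 lie in adjacent copies of the same short stretch, so the second match is not independent of the first. AATNNACA, the core that Foxh1 recognises, also occurs 2 times, beginning 127 and 101 bases before the start, where 10.9% of promoters hold it and 1.12% hold 2 or more. The SMAD box CAGAC begins 113 bases before the start and is present in 42.2% of promoters. The motifs were picked after the sequence had been seen, none contains another, and a match is not evidence of binding.

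Lefty1 and Lefty2 encode secreted antagonists of Nodal. The genes are neighbours on chromosome 1, with Lefty2 at chr1:180893108-180899107 and Lefty1 35914 bases further on at chr1:180935022-180938401. Lefty1 stood at 7.82, 7.89 and 7.73 in the labelled iPS-derived NSC group, against 5.81, 5.59 and 5.58 in the labelled iPS group and 5.51 to 5.92 in brain NSC. Lefty2 stood at 8.22, 8.34 and 7.66, against 3.60, 3.67 and 3.76 in the labelled iPS group and 3.29 to 3.91 in brain NSC. For both genes the first group lay above all other arrays. Lefty1 was higher by 2.16 ± 0.12 than in the labelled iPS group and by 2.09 ± 0.11 than in brain NSC (adjusted p = 1.42e-09 and 8.52e-10). For Lefty2 the differences were 4.40 ± 0.18 and 4.49 ± 0.16 (6.14e-11 and 2.13e-11). The 2 genes are close paralogues with 1 probe set each, and whether either probe set also reads the other transcript was not tested.

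Both activin receptors are membrane kinases. Acvr1b, the type I receptor shared by Nodal and activin, gave 9.15, 9.17 and 8.83 in the labelled iPS-derived NSC group, 7.71, 7.72 and 7.74 in the labelled iPS group, and 8.28, 8.26, 8.07 and 8.22 in brain NSC. The 3 groups did not overlap, with brain NSC in the middle. Acvr1b was called higher than in the labelled iPS group (1.33 ± 0.11, adjusted p = 1.01e-07), though not when its probe sets were averaged (0.755). Its difference of 0.85 ± 0.10 from brain NSC was under 2-fold (adjusted p = 4.76e-06).

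Acvr2b, a type II receptor for Nodal and activin, gave 8.47, 7.99 and 8.84 in the labelled iPS-derived NSC group, 6.61, 6.65 and 6.70 in the labelled iPS group, and 6.00, 6.25, 5.64 and 6.40 in brain NSC. Here too the 3 groups did not overlap, but brain NSC was lowest. The gene was called higher in both comparisons, by 1.78 ± 0.21 against the labelled iPS group and by 2.36 ± 0.19 against brain NSC (adjusted p = 4.2e-06 and 1.02e-07).

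Smad2 differed little on its brightest probe set, with 9.04, 9.17 and 9.08 in the labelled iPS-derived NSC group, 8.94, 8.88 and 8.93 in the labelled iPS group, and 8.86 to 9.08 in brain NSC. The first group did not overlap the labelled iPS group but overlapped brain NSC. Its difference from the labelled iPS group was 0.18 ± 0.09, with a 95% interval of -0.02 to 0.38, and that from brain NSC 0.11 ± 0.09 (-0.07 to 0.30). Both intervals lie within a 2-fold change. Smad3 was lower in the labelled iPS-derived NSC group, at 7.66, 7.87 and 7.57, against 8.60, 8.60 and 8.55 in the labelled iPS group and 8.61 to 8.78 in brain NSC. Its arrays did not overlap in either comparison. The differences of -0.88 ± 0.10 and -0.99 ± 0.09 (adjusted p = 3.07e-06 and 4.42e-07) fell just short of the 2-fold limit. The second passed it when labelled iPS-derived NSC replicate 2 (-1.074), brain NSC replicate 1 (-1.001) or brain NSC replicate 3 (-1.013) was left out, and with arrays centred on their medians (-1.018).

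Tgfb2 encodes the TGF-beta2 ligand and was the 1 member called lower. It lies at chr1:186622787-186709697. The arrays labelled iPS-derived NSC gave 4.85, 5.12 and 4.06, those labelled iPS 8.52, 8.50 and 8.61, and brain NSC 7.32, 7.07, 7.14 and 7.24. The 3 groups did not overlap, and each neighbouring pair in that order differed past the threshold. Tgfb2 fell by 3.87 ± 0.20 against the labelled iPS group (adjusted p = 9.22e-10 in limma) and by 2.52 ± 0.19 against brain NSC (3.98e-08). Its value of 4.06 on labelled iPS-derived NSC replicate 3 lies under the lower quartile of that array (4.37). The sizes of both falls are therefore not exact.

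The promoter of Tgfb2 is shown as that of the only member called lower. It is the RefSeq sequence of GRCm38.p6 at chr1:186705990-186706239, minus strand, before a start site that lies inside the full span of the gene. Capitals mark TATAAA, the TATA box core.
Tgfb2: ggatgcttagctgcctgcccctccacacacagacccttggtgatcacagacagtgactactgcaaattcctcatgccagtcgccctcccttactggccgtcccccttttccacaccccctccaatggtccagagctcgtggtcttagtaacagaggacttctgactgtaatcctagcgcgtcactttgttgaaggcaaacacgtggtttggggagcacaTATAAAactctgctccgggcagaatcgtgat
The TATAAA begins 31 bases before the start and occurs in 12.4% of promoters of this length on either strand. The E-box CACGTG begins 51 bases before it and is held by 6.02%, and CAGAC occurs 2 times, beginning 221 and 204 bases before it. Promoters of 6 members were matched, and neither the GC box nor AATNNACA was found in the windows of Tgfb2, Nodal, Smad3, Acvr1b or Acvr2b. The octamer ATGCAAAT, which Oct4 recognises, and the palindromic SMAD element GTCTAGAC were in none of the 6 windows, against 1.6% and 0.167% of all promoters. The G and C content was 42.0% before Tdgf1, 53.6% before Tgfb2, 53.2% before Nodal, 69.2% before Smad3, 72.8% before Acvr2b and 78.8% before Acvr1b, with a median of 52.4% over all promoters.

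**Figure D2:**
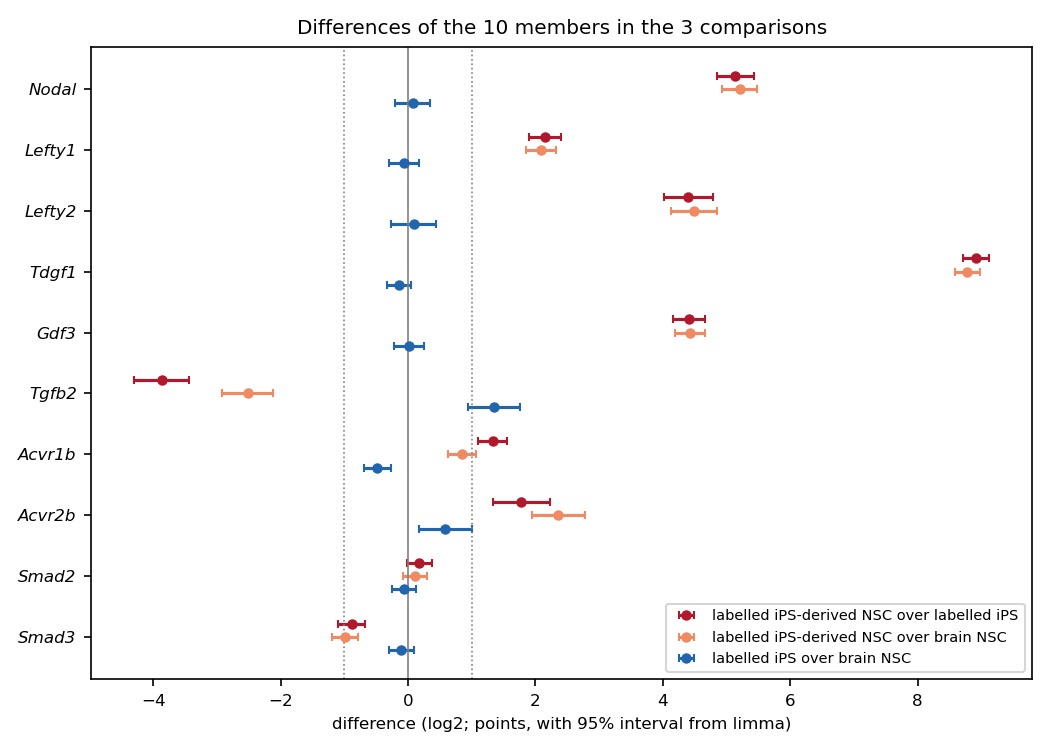
Differences (log2, horizontal axis) of the 10 members in the 3 comparisons, with 95% intervals from limma, a solid line at 0 and dotted lines at a 2-fold difference. Tdgf1 has the largest difference (8.92), and in the labelled iPS over brain NSC comparison Tgfb2 alone lies beyond a dotted line (1.35).

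The comparison of the arrays labelled iPS-derived NSC with brain NSC sets derived cells beside the cells they are named for, with the same conflict of names and markers. Of the 10 members, 6 were called higher and 1 lower, against 11.3% and 14% of all genes, or 25.4% together. The members were those of the comparison above without Acvr1b. Their median difference was 2.22 and that of all genes 0.13.

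The feeder fibroblast markers differed among the arrays labelled iPS-derived NSC, so the calls were also made without each of them. The 8 calls against the labelled iPS group and the 7 against brain NSC stood when any 1 array of the series was left out. On replicate 3, where the fibroblast markers averaged 5.58, Lefty1 (7.73), Lefty2 (7.66), Tdgf1 (12.30), Tgfb2 (4.06), Acvr1b (8.83) and Smad3 (7.57) had the lowest values of their group. Nodal (10.48), Gdf3 (9.86) and Acvr2b (8.84) had the highest there, and Smad2 (9.08) lay between. What part the fibroblast, endoderm or neuron markers have in the differences was not tested.

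By their names, the arrays labelled iPS set against brain NSC would show reprogramming, but their pluripotency and neural markers were at the levels of the brain NSC arrays given above. Of the 10 members 1 was called, Tgfb2, which was higher by 1.35 ± 0.19 (2.55-fold, adjusted p = 0.000334), while 0.951% of all genes were called higher and 0.89% lower, or 1.84% together. Brain NSC replicate 4 differed more from the others of its group (SD of the difference 0.326 to 0.37) than they did among themselves (0.188 to 0.243). From the labelled iPS arrays it differed by 0.361 to 0.368 on that measure, and the other brain NSC arrays by 0.425 to 0.489. Without replicate 4, 332 genes were called higher and 205 lower, against 173 and 162 with it. The difference of Tgfb2 was 0.906 when its probe sets were averaged and 0.777 without probe sets ending in _x_at, _s_at or _a_at, both under 2-fold. Acvr1b was lower by 0.48 ± 0.10 (adjusted p = 0.00446) and Acvr2b higher by 0.58 ± 0.19 (0.0481), neither reaching 2-fold. The other 7 members differed by -0.14 to 0.09, and their 95% intervals reached from -0.33 for Tdgf1 to 0.44 for Lefty2. The median over the members was -0.02, beside 0.01 over all genes.

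Several members have more than 1 probe set, and these did not always move by the same amount. Each was tested over all 45037 probe sets. Against the labelled iPS group, 10 of the 21 were called higher and 3 lower in the labelled iPS-derived NSC group, while 20.5% of all probe sets were called. Against brain NSC the numbers were 9 and 3, with 20.6% called. In the labelled iPS over brain NSC comparison 2 were called, both of Tgfb2, against 2.14%.

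The second probe set of Nodal gave a difference of 4.22 ± 0.15 from the labelled iPS group, and that of Gdf3 2.38 ± 0.14. Both had the direction of the brightest one. That of Nodal stood at 4.10 on labelled iPS replicate 3, under the lower quartile of that array (4.25), so its size is not exact. Against the labelled iPS group 3 of the 4 probe sets of Tgfb2 were called, with differences of -3.87, -3.74 and -3.30. The dimmest gave -0.62 ± 0.14 and was not called. The probe set at -3.74 stood at 3.98 to 4.26 in the labelled iPS-derived NSC group, under the lower quartile of those arrays. The probe set at -3.30 stood at 4.19 and 3.94 on labelled iPS-derived NSC replicates 1 and 3, also under the lower quartile. Neither of these sizes is exact. Between the labelled iPS and brain NSC groups the 4 probe sets of Tgfb2 gave 1.35, 1.12, 0.78 and 0.38.

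For Acvr1b the other probe set did not follow the brightest: it averaged 5.62 ± 0.15 (SD, n = 3) in the labelled iPS-derived NSC group, 5.44 ± 0.11 (n = 3) in the labelled iPS group and 5.47 ± 0.21 (n = 4) in brain NSC, and the groups overlapped. Those of Acvr2b gave 1.29 ± 0.18 (called) and 0.51 ± 0.10 (not called) against the labelled iPS group. The uncalled one stood at 3.89 to 4.11 in the labelled iPS group, under the lower quartile of those arrays, so its difference is not exact. The other probe set of Smad2 averaged 9.12 ± 0.02 (SD, n = 3) in the labelled iPS-derived NSC group, 8.36 ± 0.03 (n = 3) in the labelled iPS group and 8.49 ± 0.04 (n = 4) in brain NSC. Its difference of 0.75 ± 0.08 from the labelled iPS group (adjusted p = 3.99e-06) was under 2-fold, beside 0.18 for the brightest one. Both dimmer probe sets of Smad3 overlapped between all groups, with differences of -0.08 ± 0.17 and -0.33 ± 0.19. The lower level of Smad3 thus rests on 1 of 3 probe sets. The group means of the dimmer ones were 5.44 to 6.15, against 7.70 to 8.69 for the brightest. These dimmer levels, and those of the other probe set of Acvr1b, lie near the array medians (5.65 to 5.72). RMA compresses differences of dim probe sets, so a difference may not show on them.

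**Figure D3:**
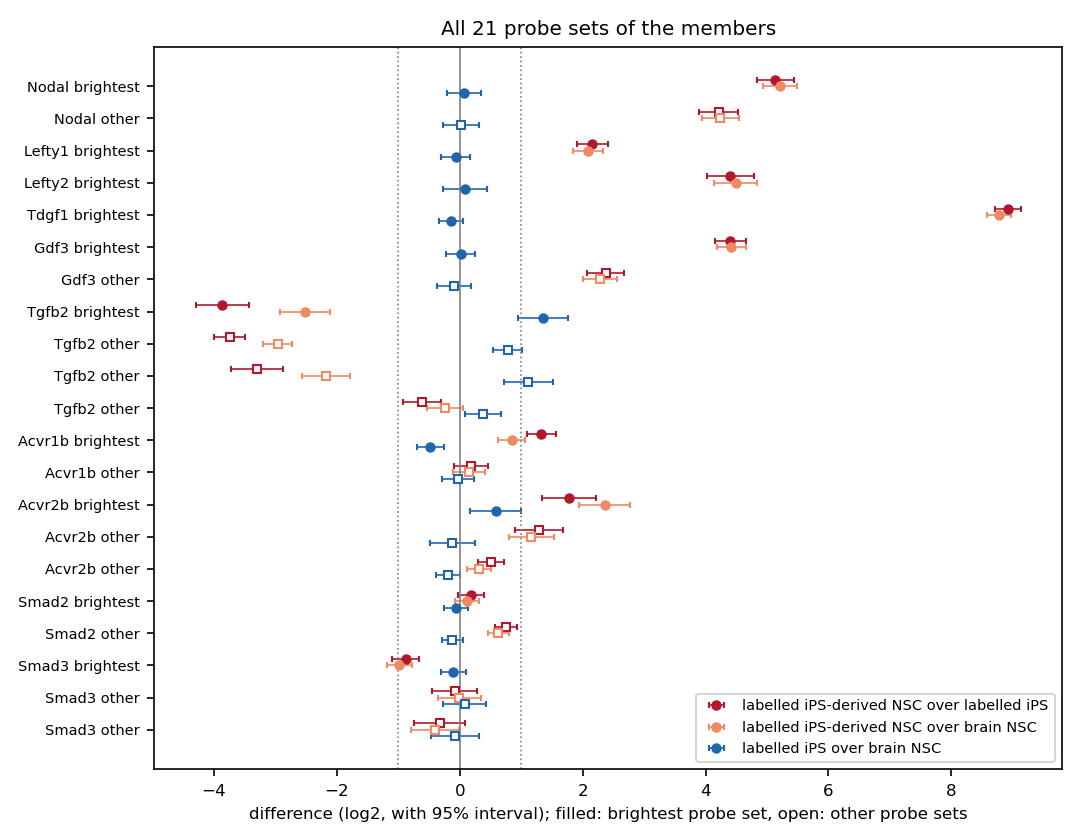
Differences (log2, horizontal axis) of all 21 probe sets of the members in the 3 comparisons, with 95% intervals from limma, where filled circles are the brightest probe set of a gene and open squares the others. Nodal and Gdf3 keep their direction on both probe sets, while the other probe sets of Acvr1b (0.18) and Smad3 (-0.08 and -0.33) lie near 0 against the labelled iPS group.

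The wider pathway was read from 51 further genes listed by role, of which 46 were measured and the others were not analysed here. Against the labelled iPS group, 14 of the 46 were called higher and 9 lower in the labelled iPS-derived NSC group, with a median of 0.22. The counts against brain NSC were 14 and 7, with a median of 0.31. Both shares of called genes are above the 25.3% and 25.4% of all genes, but the list was not tested as a set. Of these calls, 12 of 23 and 9 of 21 had a value under every alternative with the same threshold and held there, and 9 in each comparison changed. Ltbp4 and Tgif1 in the first, and these with Eng in the second, did not change but had no value without probe sets ending in _x_at, _s_at or _a_at. Where a gene is given a pair of differences below, the first is from the labelled iPS group and the second from brain NSC. The counts by role below stand beside all-gene shares of 10.8% higher and 14.4% lower against the labelled iPS group. Against brain NSC those shares were 11.3% and 14%. The lists by role are short and were not tested as sets.

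Tgfbr2, the type II receptor for TGF-beta, gave 5.77, 5.45 and 5.09 in the labelled iPS-derived NSC group, 10.08, 10.05 and 10.01 in the labelled iPS group, and 9.64, 9.59, 9.56 and 9.77 in brain NSC. It fell by 4.61 ± 0.14 against the labelled iPS group (24.5-fold, adjusted p = 3.68e-12) and by 4.21 ± 0.13 against brain NSC (4.03e-12), without overlap. Its values on the 3 arrays stand in the order of their fibroblast marker means, and a part of fibroblast RNA in them was not tested.

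Of the 7 other receptors and co-receptors, 4 were called lower than in the labelled iPS group and 1 higher. The lower ones were Tgfbr2, the co-receptor Tgfbr3 (-1.61 ± 0.14), the type II activin receptor Acvr2a (-1.39 ± 0.14) and the type I receptor Tgfbr1 (-1.09 ± 0.09). The higher one was endoglin (Eng, 1.08 ± 0.12), a co-receptor best known from endothelium. When probe sets were averaged, Tgfbr3 (-0.878), Acvr2a (-0.449) and Tgfbr1 (-0.644) were not called. Tgfbr1 was also not called after quantile normalization (-0.95), nor Eng without labelled iPS-derived NSC replicate 3 (0.998). Against brain NSC 3 were lower and 1 higher. There Tgfbr1 stood at -0.99 and was called when probe sets were averaged (-1.187), while Tgfbr3 (-0.981) and Acvr2a (-0.845) were then not. Acvr2a and Acvr2b, which serve the same ligands, thus moved in opposite directions on their brightest probe sets.

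Among 6 other ligands, Inhbb, the beta B chain of activin and inhibin, was lower, at 7.11, 6.91 and 7.01 in the labelled iPS-derived NSC group, 8.92, 8.86 and 8.83 in the labelled iPS group and 8.36 to 9.04 in brain NSC. The differences were -1.86 ± 0.15 and -1.60 ± 0.14, the second of them -0.948 and uncalled on averaged probe sets. Tgfb1, the TGF-beta1 ligand, was higher by 1.13 ± 0.13 and 1.59 ± 0.12. Averaged probe sets gave 0.575 and 0.916, under the limit, and it was not called against the labelled iPS group without labelled iPS-derived NSC replicate 3 (0.985). The beta A chain Inhba (0.52 ± 0.16) and Tgfb3 (-0.65 ± 0.21) were not called against the labelled iPS group.

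Of 12 genes that store, process or block the ligands, 2 were called higher and 2 lower than in the labelled iPS group. Against brain NSC the counts were 3 and 2, to be read beside the shares of all genes above. Latent TGF-beta is held in the matrix by the Ltbp proteins. Ltbp4 was higher by 2.17 ± 0.20 and 2.92 ± 0.18, and Ltbp3 lower by 2.32 ± 0.16 and 2.62 ± 0.15. Ltbp2 lay at the limit, called against brain NSC (1.09 ± 0.14; 0.974 and not called after quantile normalization) and not against the labelled iPS group (1.00 ± 0.15). Its values in the labelled iPS group (3.40 to 3.86) and in brain NSC (3.29 to 3.71) lie under the lower quartile of their arrays, so neither difference is exact. The one from the labelled iPS group passed without labelled iPS replicate 2 (1.116) or labelled iPS-derived NSC replicate 3 (1.118). Pcsk6, a convertase that cleaves the Nodal precursor, was higher, at 9.14, 8.98 and 9.20 in the labelled iPS-derived NSC group, 7.68, 7.82 and 7.71 in the labelled iPS group and 6.76 to 7.28 in brain NSC. Its differences were 1.37 ± 0.13 and 2.15 ± 0.12. The related Pcsk5 was lower, at -2.47 ± 0.20 and -1.49 ± 0.19, but stood at 0.143 and 0.243 without probe sets ending in _x_at, _s_at or _a_at. Furin, another convertase of Nodal (-0.37 ± 0.16), and the antagonists Cer1 (0.37 ± 0.11) and Fst (0.77 ± 0.12) were not called against the labelled iPS group, though Fst was on averaged probe sets (1.134).

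**Figure D4:**
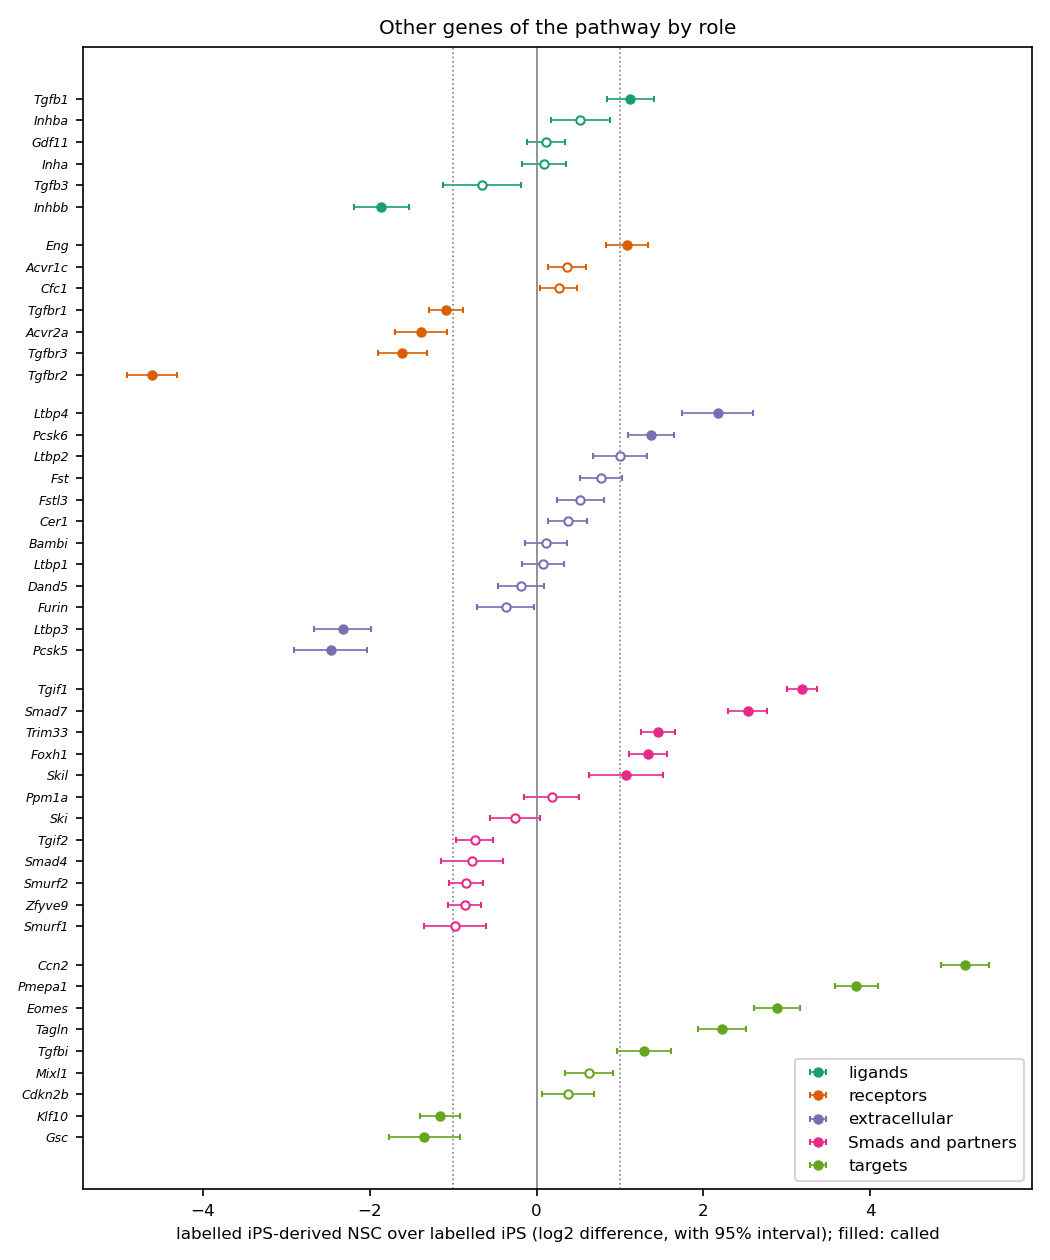
Differences (log2, horizontal axis) of 46 other pathway genes between the arrays labelled iPS-derived NSC and those labelled iPS, grouped by role, with 95% intervals from limma; filled points were called. Tgfbr2 (-4.61) is the lowest and Ccn2 (5.13) the highest.

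Of 12 other Smads and nuclear partners, 5 were higher than in the labelled iPS group and 0 lower, and against brain NSC 4 were higher and 0 lower. In limma 10 of the 12 had an unadjusted p under 0.05 in each comparison, in either direction. Of all 18193 genes, 11774 did so against the labelled iPS group and 12021 against brain NSC. Smad7, the inhibitory Smad that the pathway induces, gave 8.73, 8.83 and 8.68 in the labelled iPS-derived NSC group, 6.16, 6.30 and 6.19 in the labelled iPS group, and 5.74 to 6.05 in brain NSC. The difference was 2.53 ± 0.11 (adjusted p = 1.11e-10) from the labelled iPS group and 2.83 ± 0.10 (1.49e-11) from brain NSC. Foxh1, the DNA-binding partner of Smad2, was higher by 1.33 ± 0.11 and 1.24 ± 0.10. Tgif1, a homeodomain repressor that binds Smads, was higher by 3.18 ± 0.08 and 2.20 ± 0.08, and its 3 groups did not overlap. Trim33, a ubiquitin ligase that acts on Smad4, was higher by 1.46 ± 0.09 and 1.23 ± 0.09, but averaged probe sets gave 0.627 and 0.398, under the limit. The Smad co-repressor Skil was called against the labelled iPS group (1.07 ± 0.21; 0.898 and not called without labelled iPS-derived NSC replicate 2) and not against brain NSC (0.31 ± 0.19; 1.108 and called on averaged probe sets). Ppm1a, a phosphatase of Smad2 and Smad3, was not called (0.18 and 0.71) but was called higher in both comparisons on averaged probe sets (1.268 and 1.443). The shared Smad4 was not called, at -0.77 ± 0.17 and -0.36 ± 0.16.

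Of 9 measured genes known as targets of the pathway, 5 were higher and 2 lower than in the labelled iPS group, and 5 and 1 against brain NSC. Pmepa1, a feedback inhibitor that TGF-beta induces, gave 10.30, 10.48 and 10.61 in the labelled iPS-derived NSC group, 6.73, 6.51 and 6.65 in the labelled iPS group, and 6.97 to 7.33 in brain NSC. It was higher by 3.83 ± 0.12 and 3.36 ± 0.11. Eomes, a T-box factor that Nodal induces in the embryo, was higher by 2.89 ± 0.13 and 2.85 ± 0.12. Ccn2, a secreted matrix-associated factor listed under its older name Ctgf, was higher by 5.13 ± 0.13 and 5.64 ± 0.12, and the actin-binding Tagln by 2.23 ± 0.13 and 2.05 ± 0.12. The brain NSC values of Ccn2, 3.81 to 4.16, lie under the lower quartile of those arrays, so its second difference is not exact. Ccn2 gave 9.71, 9.31 and 9.81 on replicates 1, 2 and 3 labelled iPS-derived NSC and Tagln 7.79, 7.61 and 7.25, beside fibroblast marker means of 6.50, 6.17 and 5.58. Fibroblasts also express both genes, and their part in these values was not tested. Tgfbi was higher by 1.29 ± 0.15 and 1.22 ± 0.14, but by 0.588 and 0.716 without probe sets ending in _x_at, _s_at or _a_at. Some values of Tgfbi in the labelled iPS group (lowest 3.95) and in brain NSC (lowest 4.06) lie under the lower quartile of their arrays. Neither of its differences is therefore exact. Klf10, a factor that TGF-beta induces early, was lower by 1.16 ± 0.11 and 1.09 ± 0.10, the second not called without labelled iPS-derived NSC replicate 1 (-0.976) or after quantile normalization (-0.981). The organiser factor Gsc was lower than in the labelled iPS group (-1.34 ± 0.20) and not called against brain NSC (-0.85 ± 0.19).

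**Figure D5:**
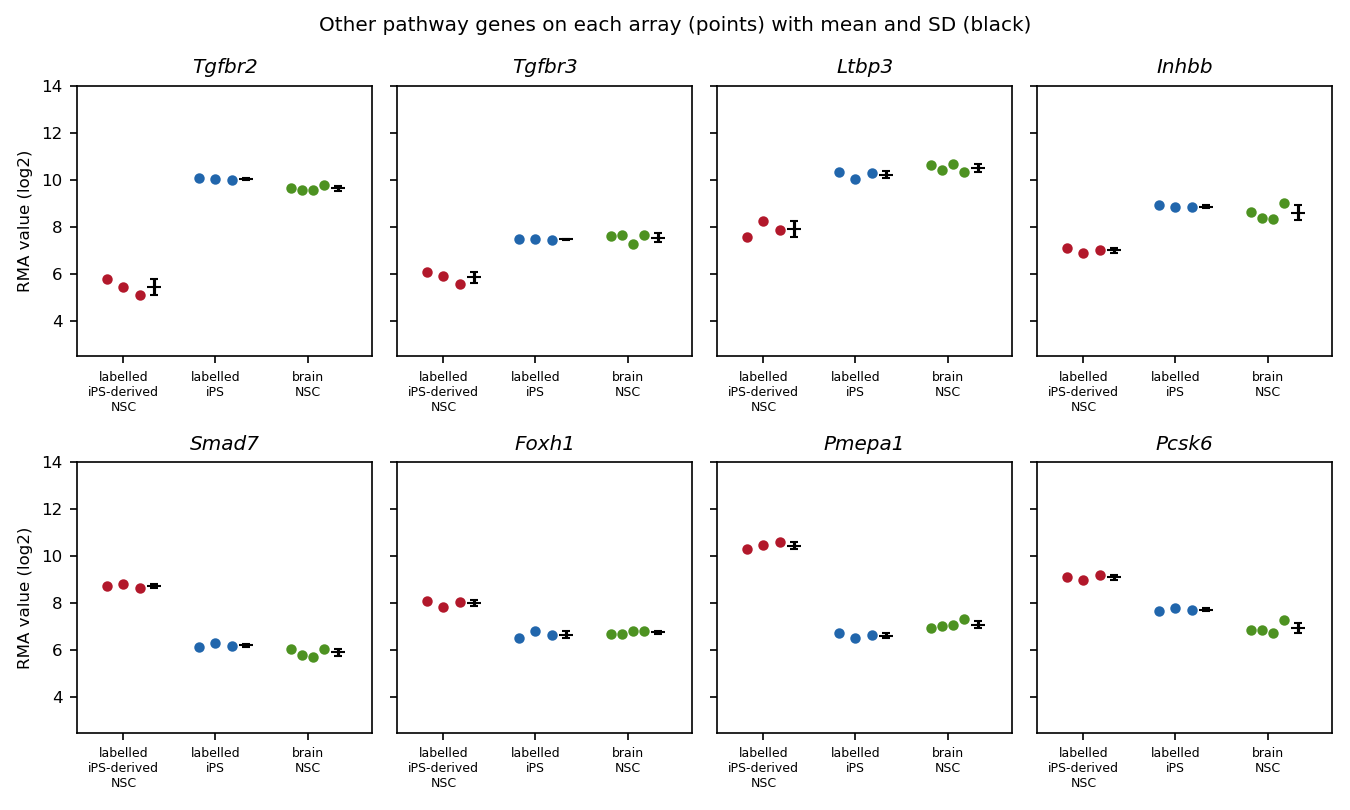
RMA values (log2, vertical axis) of 8 other pathway genes on the 10 arrays, as 1 point per array, with the mean and SD in black. Tgfbr2, Tgfbr3, Ltbp3 and Inhbb lie below both other groups in the labelled iPS-derived NSC group, and Smad7, Foxh1, Pmepa1 and Pcsk6 above them.

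Between the labelled iPS group and brain NSC, limma called 0 of the 46 other pathway genes, against 1.84% of all genes. Of the 46, 20 had an unadjusted p under 0.05 in limma, beside 5919 of all 18193 genes. The median difference of the 46 was 0.09. At the limit, Pcsk5 was higher by 0.98 ± 0.19 and Tgif1 lower by 0.98 ± 0.08. Pcsk5 was called without labelled iPS replicate 2 (1.228) and without brain NSC replicate 1 (1.058), and Tgif1 without labelled iPS replicate 2 (-1.006) and after quantile normalization (-1.033).

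The genes most like 3 of the members were found by the root mean square difference of their log2 values over the 10 arrays, each gene centred on its own mean. Nearest to Nodal were Camsap3 (0.123), Icam1 (0.151) and Gm7969 (0.168). Nearest to Tgfb2 were Kcnmb4 (0.239), Prag1 (0.299) and Nck2 (0.323). Nearest to Smad3 were Bin3 (0.0661), Cd164 (0.0664) and Smurf2 (0.0682), the last a ubiquitin ligase that acts on Smads and on the TGF-beta receptors. Smurf2 was lower by 0.85 ± 0.09 against the labelled iPS group and by 0.92 ± 0.09 against brain NSC, under 2-fold in both, like Smad3. The measure is a description of these 10 arrays.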

How the data were processed

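The deposited table holds log2 expression values per probe set, which the authors made with RMA, per the submitters' processing notes. No version of it is given here. The method subtracts background, equalises array distributions and summarises probes, so differences of dim genes are compressed and a shift shared by most genes is largely removed. The deposited distributions still differed: upper quartiles were 7.795 to 7.839 on the arrays labelled iPS-derived NSC and 8.026 to 8.12 on all others. Quantile normalization moved the calls against the labelled iPS group from 1970 higher and 2628 lower to 2214 and 2375. Of 45101 probe sets, 64 were controls, 34945 had 1 gene symbol in the platform annotation, 932 several and 9160 none. Symbols were checked by Entrez identifier against RefSeq genes of GRCm38.p6, which matched 34741 and changed 0.

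Each of 18193 genes was represented by the probe set with the highest mean over all arrays. Groups came from the sample titles. limma 3.58.1 in R 4.3.3 (lmFit, eBayes) fitted the 3 groups over 10 arrays, with 7 residual and 5.95 prior degrees of freedom. P-values are two-sided and Benjamini-Hochberg adjusted over all genes, or over all 45037 probe sets where probe sets are named. Errors of differences are moderated standard errors. The fit was tested on simulated data. Tables and figures were made in Python 3.11.15 with matplotlib 3.10.9, pandas 2.3.3 and numpy 2.4.6.

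The members, gene lists and tests were chosen with earlier results of these data known. All members are named; other pathway genes are named where they were called, and uncalled ones as examples chosen after their values were seen. Between any 2 arrays at most 36 of the 34945 values were identical. Scanner files and scan dates were not used here. Precision is limited by the number of arrays. The alternatives were the mean of the probe sets, probe sets by suffix, a filter on genes below 5 in all groups, quantile normalization, median centring, eBayes with trend and robust, fits of 2 groups only, the replicate number as a block, leaving out each array, and no minimum fold.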

Additional observations from a re-analysis of the deposited data

Results flagged for a closer look

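Among 67 probe sets of the pathway checked in the 4 brain NSC arrays, 2 had 1 array far from the others, with a gap above 0.829 of the group's range. Tgfb3 stood at 6.28 on replicate 4, against 5.52 to 5.57 on the others, and Tgfbr3 at 7.26 on replicate 3, against 7.63 to 7.66. Chance marks about 1 in 20 groups in this way, and 0 of the 21 probe sets of the 10 members were among them.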

How the results depend on the processing

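Each of the 30 differences of a member was recomputed under 18 alternatives, 540 values in all, of which 526 kept their direction and their side of the threshold. Many of these could not move a difference. The filter on dim genes, eBayes with trend and robust, and fits of 2 groups only alter just its error and adjusted p. So does leaving out an array of the group not compared. The 526 are therefore not that many separate checks of size or direction. The calls that changed were those of Tgfb2, Acvr1b and Smad3. Acvr1b was not called against the labelled iPS group with the mean of its probe sets (0.755) and was called against brain NSC after quantile normalization (1.006). Directions turned only for labelled iPS over brain NSC differences near 0 that were never called: Nodal (-0.009 to 0.132 without 1 array, the lowest without brain NSC replicate 2), Lefty2 (-0.011 to 0.197, the lowest without brain NSC replicate 1) and Gdf3 (-0.084 to 0.118 without 1 array, -0.04 with the mean of its probe sets, -0.022 with the replicate block and without brain NSC replicate 4, and the lowest without labelled iPS replicate 2). In that comparison the count of called members, 1 of 10, was 0 with the mean of the probe sets, 0 without probe sets ending in _x_at, _s_at or _a_at, and 3 with no minimum fold. The count of other pathway genes, 0 of 46, was 1 after quantile normalization, 14 with no minimum fold and 0 to 2 without 1 array. With no minimum fold, 38 of 46 were called between the labelled iPS-derived NSC and labelled iPS groups and 37 against brain NSC. The cause of these changes was not tested beyond what each alternative alters. Replicate numbers are shared between groups, and the values did not show that they pair the arrays. The correlation of deviations from group means was -0.249 to 0.147 over 9 same-numbered pairs, with 1 pair above 0.1. Pairs with different numbers reached from -0.347 to 0.3. Deviations within a group sum to 0, so this check cannot exclude pairing. The replicate block changed 0 of the counts of called members. Replicate number 4 occurs only in brain NSC, so the block takes that array out of the differences. The block and leaving out brain NSC replicate 4 therefore give the same differences and are not separate checks of them. Over all genes the labelled iPS over brain NSC calls, 173 higher and 162 lower, were 332 and 205 with the block or without brain NSC replicate 4, 110 and 113 on averaged probe sets, and 2013 and 1691 with no minimum fold. With no minimum fold 6290 genes were higher and 4833 lower against the labelled iPS group, and 6721 and 4694 against brain NSC. Dim levels, feeder cells in the cultures and names that the markers contradict limit what the differences mean.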
